A study of Brassica napus with 12 samples.

Results

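Most phenylpropanoids made in a leaf start from phenylalanine and pass through 3 enzymes, PAL, C4H and 4CL. The loci that encode these enzymes in Brassica napus (oilseed rape) are described here. Members were the loci whose Arabidopsis match in the deposited annotation is PAL1 (AT2G37040), PAL2 (AT3G53260), PAL3 (AT5G04230), PAL4 (AT3G10340), C4H (AT2G30490), 4CL1 (AT1G51680), 4CL2 (AT3G21240) or 4CL3 (AT1G65060). This gave 32 loci of 101040. PAL had 15 of them (PAL1 4, PAL2 6, PAL3 3 and PAL4 2), C4H had 10, and 4CL had 7 (4CL1 2, 4CL2 3 and 4CL3 2).

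All RNA came from true leaves of RV31, a line derived from the cultivar Westar, grown for 21 days under white light. There were 6 groups of 2 libraries, numbered 41 and 42, and below the value of replicate 41 is always given first. White light controls got no UV-B (white light of 70 µmol per square metre and second), and UV-B plants received UV-B at 3 µmol per square metre and second for 4 h on another shelf of the same cabinet. Both groups had been moved to dimmer white light the night before treatment. The white light that accompanied the UV-B is not given in the sources used here. Herbivory plants were moved to dimmer white light in a cabinet set warmer than for growth, and stood in mesh cages. They were grazed for 1 h by larvae of Plutella xylostella, the diamondback moth, and kept in that light. Damaged leaf tissue was taken from them. The study's methods and its design text differ on how many hours passed before these plants were harvested. MeJA plants were sprayed with 4 mL of 100 µM methyl jasmonate, the airborne form of the wound hormone jasmonate, in 0.01% ethanol with 0.01% of the wetting agent UN65. Their controls were sprayed with 4 mL of that solvent alone, or with 4 mL of distilled water. Sprayed plants were covered, stood in the same dim light and were harvested after 4 h. No ungrazed, unsprayed group in the dimmer light was analysed here, so herbivory was set against the white light group and also against water. Against white light, grazing cannot be told apart from the dimmer light, the cabinet, the cage and the choice of damaged tissue. Against water, it cannot be told apart from the spray, the cover, the cabinet, the cage and that choice of tissue. The methods state that replicates were pooled and the design text states that they were sequenced singly, so p-values measure only the spread between libraries, which may be technical.

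PAL removes the amino group of phenylalanine and releases cinnamate. C4H, a cytochrome P450 of the endoplasmic reticulum that draws electrons from the reductases ATR1 and ATR2, hydroxylates cinnamate to p-coumarate. 4CL then joins p-coumarate to coenzyme A, and p-coumaroyl-CoA is the point from which flavonols, lignin, sinapate esters and other phenolics branch. In Arabidopsis, PAL1 and PAL2 carry most of the flux, 4CL1 is tied mainly to lignin and 4CL3 to flavonoids. Oilseed rape joined the genomes of turnip (A chromosomes) and cabbage (C chromosomes), so that most Arabidopsis genes have several loci in it.

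Levels are FPKM, fragments per kilobase of transcript scaled to the library's total, after libraries were brought to a common scale by median ratios. They can be compared between genes as well as between libraries. Differences are given on the log2(FPKM + 1) scale with their standard error (SE), which understates the change of low loci, and adjusted p-values come from limma with Benjamini-Hochberg adjustment over all features tested. A locus or gene is called where the adjusted p is under 0.05 and the log2 difference is at least 1 in size. To enter the tests a locus had to reach 1 FPKM in 2 or more libraries, which 27 of the 32 members and 49700 of all loci passed. All 27 also passed when the libraries of any 1 group were ignored. Reads of near-identical copies may have been shared between loci, so sums over the loci of a gene are given beside single loci.

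Sequencing depth is unknown, since the files give no read totals. In 10 of the 12 libraries low values rose in steps of whole reads, and 1 read was worth between 1.0 and 1.69 times its value in herbivory replicate 42. The 2 libraries of a group correlated at r = 0.874 to 0.926 over log2 values of the loci tested. Light-harvesting genes marked every library as leaf: the 4 leaf markers summed to between 6155 and 38272 FPKM, nearly all of it from LHCB1.3 and LHCB2.1, while RBCS1A stayed at or under 19.6 FPKM and RBCS2B had no matched locus. Markers of seed, root and flower summed to at most 5.21 FPKM. The 50 loci around each member had median values within −0.27 and 0.35 (log2) of the median library in each library.

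Across the 12 libraries the entry enzymes were high under UV-B and low in most of the others. PAL loci together summed to 249 and 115 FPKM under white light, 1235 and 3501 under UV-B, 186 and 99.4 after herbivory, 150 and 42.3 with water, 91.5 and 69.4 with ethanol and UN65, and 164 and 222 with MeJA. C4H loci summed to 260 and 160 FPKM under white light, 770 and 2042 under UV-B, 156 and 150 after herbivory, 145 and 92.5 with water, 118 and 86.5 with ethanol and UN65, and 516 and 230 with MeJA. Both UV-B libraries lay above all 10 others for PAL and for C4H. The 4CL loci of 4CL1, 4CL2 and 4CL3 summed to 70.9 and 47.5 FPKM under white light, 148 and 242 under UV-B, and between 21.2 and 60.1 in the other 8 libraries. Loci of 4CL5, which was not a member gene, summed to 67.2 and 101 FPKM with MeJA and 43.5 and 16.6 under white light. Below UV-B the mean PAL level ran in the order MeJA, white light, herbivory, water, and ethanol and UN65, and every neighbouring pair in that order overlapped. The order was the same for C4H, where MeJA overlapped with white light, and water with ethanol and UN65, while the others did not. For summed 4CL1, 4CL2 and 4CL3 white light came before MeJA, and again every neighbouring pair overlapped. That order leaves out 4CL5, whose MeJA libraries lay above its white light libraries.

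**Figure D1:**
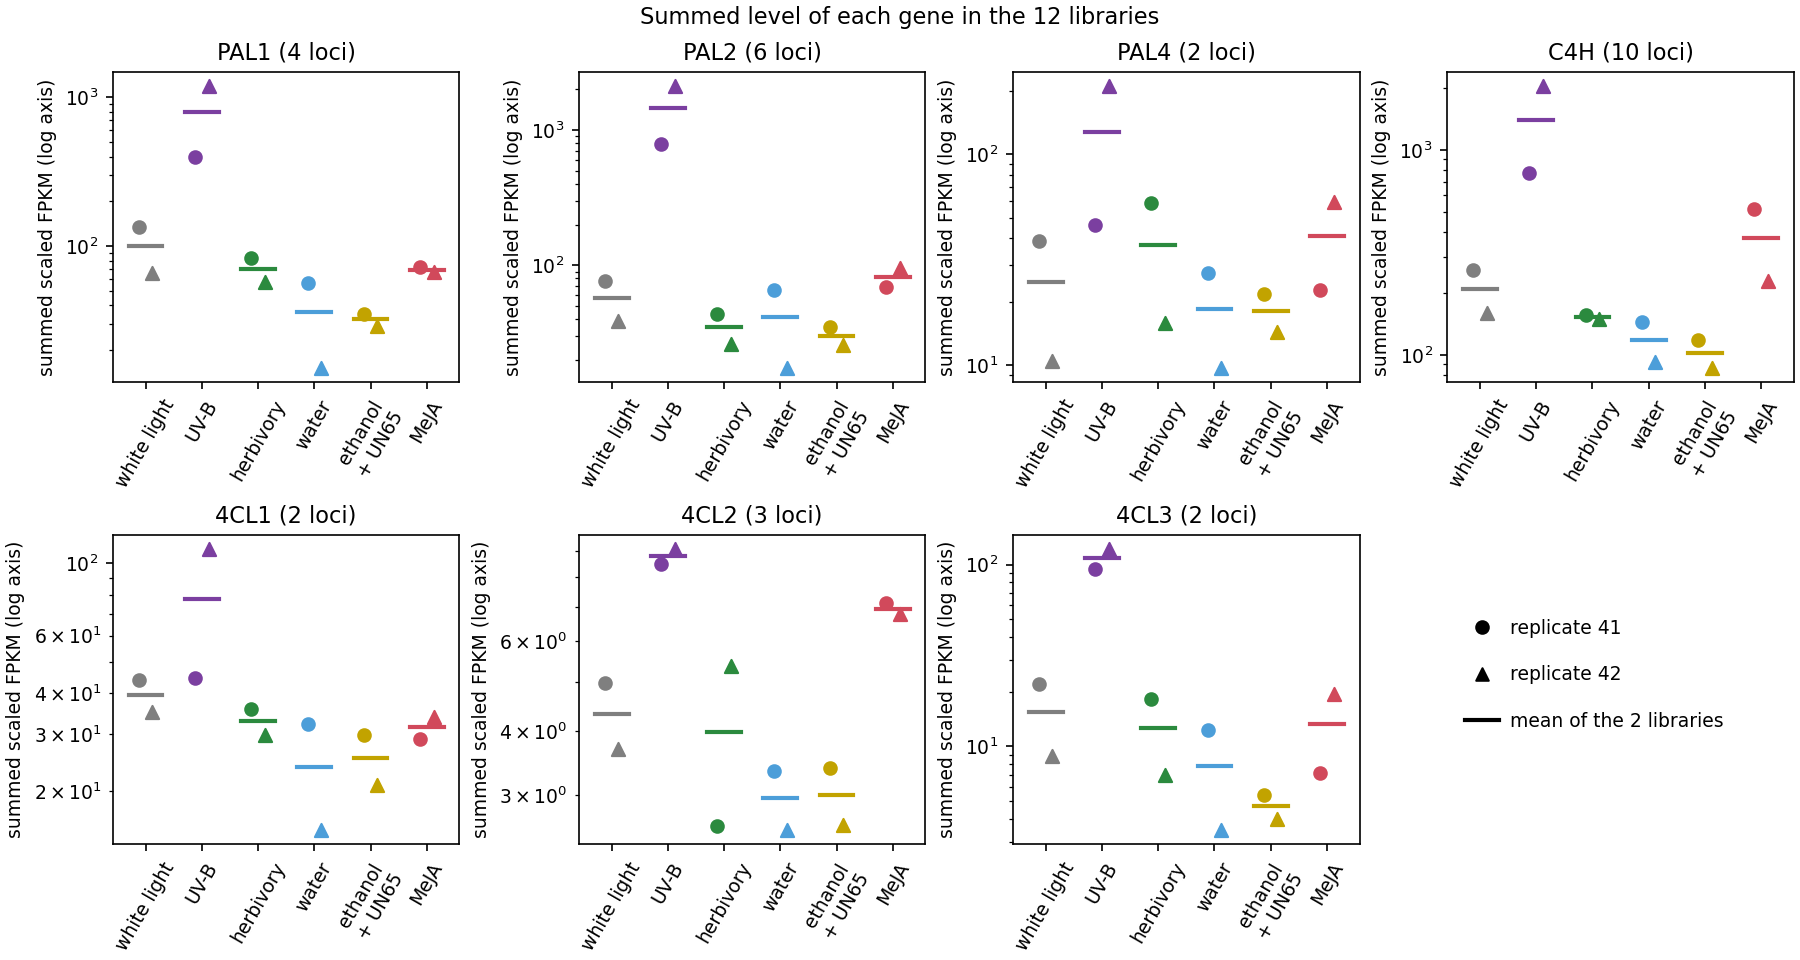
Each panel plots the summed scaled FPKM (log axis) of the loci of 1 gene in the 12 libraries, by group, with circles for replicate 41, triangles for replicate 42 and a bar for their mean. UV-B libraries sit highest for PAL1 (398 and 1185 FPKM), PAL2 (791 and 2106), C4H (770 and 2042) and 4CL3 (94.8 and 122), while the UV-B libraries of PAL4 (46.2 and 211) overlap with those of herbivory and MeJA.

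In 5 of the 6 groups most members were higher in the same replicate. All 27 tested loci were higher in UV-B replicate 42 than in 41, by a median of 1.40 on the log2 scale, while over all loci tested the median was 0.01 and 50.5% were higher. Under white light 26 of the 27 were lower in replicate 42, by a median of −0.86. With water 21 were lower in replicate 42 (median −1.16) and with ethanol and UN65 23 were (median −0.31). After herbivory 21 were lower in replicate 42, by a median of −0.595, whereas with MeJA 15 were higher and 12 lower (median 0.13). Over all loci tested, between 48.3% and 51.9% were higher in replicate 42 in each of the 6 groups. The number of members that move one way therefore does not add to the 2 libraries of a group.

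UV-B against white light asked which loci change when UV-B radiation is given. Of the 27 tested loci, 11 were called, all of them higher, against 3.54% of all loci called either way and 2.68% called higher. These were 4 PAL2 loci, 4 C4H loci, 2 PAL1 loci and 1 4CL3 locus. The 27 loci had a median log2 difference of 2.26, against 0 over all loci, and 25 were above 0. In 22 of them both UV-B libraries lay above both white light libraries, which held for 24.2% of all loci. Of the 7 gene sums tested, PAL1, PAL2, C4H and 4CL3 were called, all higher, against 4.99% of genes called either way and 3.61% called higher. The count of 11 loci fell to 3 without UV-B replicate 42, to 3 without white light replicate 41 and to 0 without white light replicate 42, and the count of 4 genes fell to 0, 1 and 0 in the same order. Summed leaf markers were lower under UV-B, at 15599 and 10251 FPKM against 28670 and 23987 (0 of 12 loci called), and summed xylem and secondary wall markers were higher, at 183 and 128 against 96.2 and 63.7 (0 of 25 called). Their part in the result was not tested, and fewer cells of a type cannot be told apart from less RNA per cell in whole leaves.

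**Figure D2:**
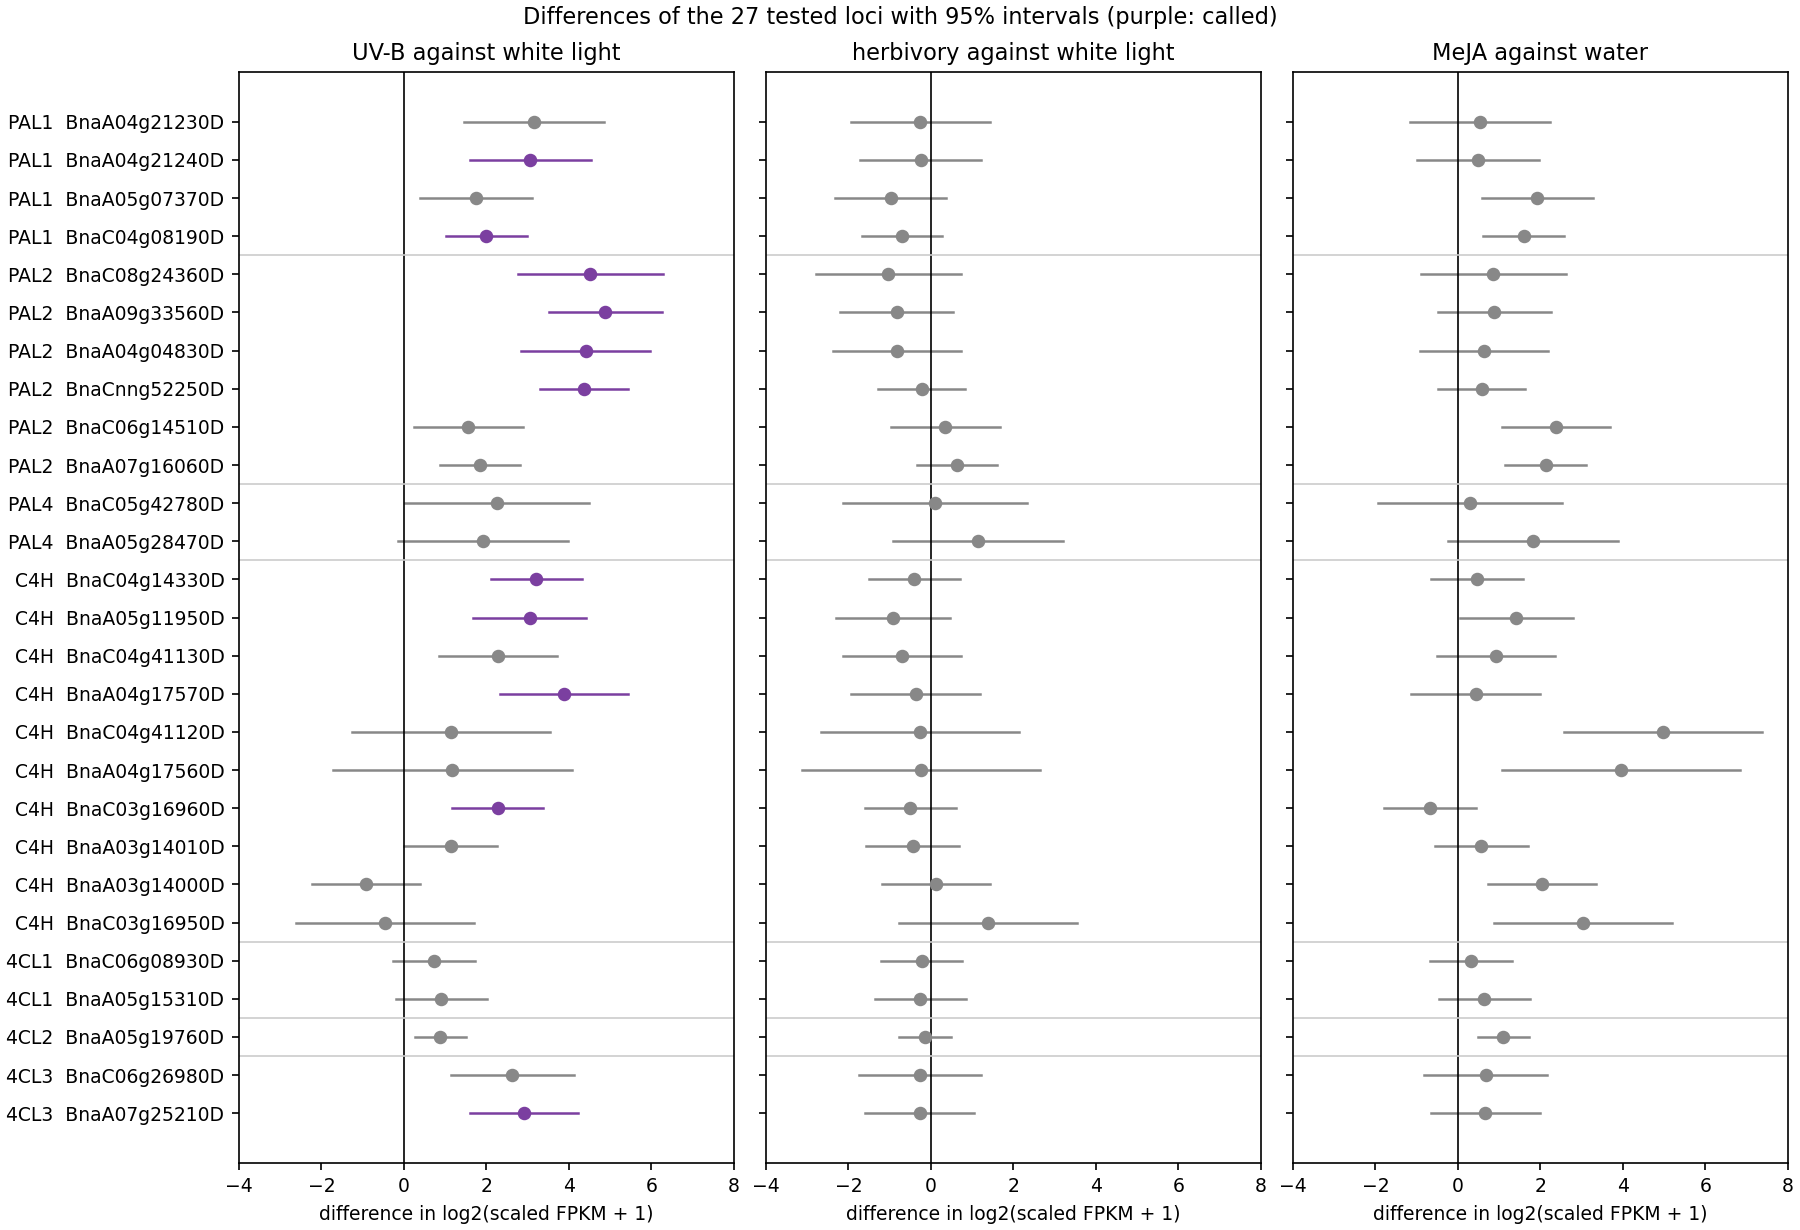
Points are the log2 differences of the 27 tested loci with 95% intervals from limma, for UV-B against white light, herbivory against white light and MeJA against water. The 11 called loci, in purple, are all in the UV-B panel, where the PAL2 loci reach 4.88, and no locus is called in the other panels.

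PAL2 had the highest UV-B differences among the members. Its 6 loci summed to 76.4 and 39.0 FPKM under white light and to 791 and 2106 under UV-B, a log2 difference of 4.54 (SE 0.66, adjusted p = 0.0129 in limma, 23.2-fold). It ran from 3.83 without UV-B replicate 42 to 5.24 without UV-B replicate 41, and the call was lost without UV-B replicate 42 or white light replicate 42. In the other groups the sum was 44.0 and 26.4 FPKM after herbivory, 65.6 and 17.4 with water, 34.8 and 25.8 with ethanol and UN65, and 69.0 and 95.8 with MeJA. The lower UV-B library was thus well above every other library, and the 5 other groups overlapped in a chain.

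The highest PAL2 locus, BnaC08g24360D (chromosome C08, 26382971 to 26385938, as the deposited annotation lists it, with no build named), stood at 30.7 and 18.04 FPKM under white light and 351 and 901 under UV-B. It was 15.2 and 7.85 FPKM after herbivory, 38.3 and 6.34 with water, 11.6 and 9.44 with ethanol and UN65, and 21.1 and 42.1 with MeJA. Its UV-B difference was 4.52 (SE 0.78), and both UV-B libraries lay far above the highest of the others, MeJA replicate 42.

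BnaA09g33560D, on A09, went from 15.6 and 11.1 FPKM to 243 and 717 under UV-B (log2 difference 4.88, SE 0.61), and was between 4.27 and 15.9 in the other 8 libraries. BnaA04g04830D, on A04, went from 12.01 and 4.01 to 96.9 and 300 (4.41, SE 0.69), and was between 1.71 and 8.51 elsewhere. BnaCnng52250D, on an unplaced part of the C genome, went from 6.56 and 3.17 to 84.2 and 157 (4.37, SE 0.47), and was between 1.59 and 6.27 elsewhere. All 4 of these loci rose, by 4.37 to 4.88 on the log2 scale, and BnaCnng52250D had the smallest adjusted p of all members, 0.00728 in limma.

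The remaining PAL2 loci, BnaC06g14510D on C06 and BnaA07g16060D on A07, had another profile. BnaC06g14510D stood at 8.87 and 1.53 FPKM under white light, 10.1 and 18.7 under UV-B, 7.81 and 3.61 after herbivory, 2.62 and 2.04 with water, 4.10 and 4.53 with ethanol and UN65, and 16.5 and 16.0 with MeJA. BnaA07g16060D stood at 2.65 and 1.07, 5.89 and 13.1, 4.44 and 2.32, 0.889 and 1.51, 2.53 and 1.78, and 10.2 and 7.09 in the same order. Both MeJA libraries lay above all control libraries of these loci, at a level close to that of UV-B. Their log2 differences under UV-B were 1.57 (SE 0.58, adjusted p = 0.164 in limma) and 1.84 (SE 0.43, adjusted p = 0.0528), neither called. Together these 2 loci made up 2.03% and 1.51% of all PAL2 FPKM under UV-B, 15.1% and 6.69% under white light, and 38.7% and 24.0% with MeJA.

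PAL1 was the PAL gene with the highest level under white light, and it rose under UV-B too. Its 4 loci summed to 134 and 65.9 FPKM under white light, 398 and 1185 under UV-B, 83.4 and 57.3 after herbivory, 56.8 and 15.2 with water, 35.1 and 29.3 with ethanol and UN65, and 71.9 and 67.2 with MeJA. The UV-B difference was 2.85 (SE 0.66, adjusted p = 0.0422 in limma, 7.23-fold), and both UV-B libraries lay above all others. It ran from 2.07 without UV-B replicate 42 to 3.64 without UV-B replicate 41. The call was lost in 7 of 12 alternatives, among them those without UV-B replicate 42 and without either white light library.

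Most PAL1 signal came from BnaA04g21230D and BnaA04g21240D, which lie side by side on A04 (16184842 to 16186305 and 16186409 to 16187893), 103 bases apart. They span 1464 and 1485 bases, against 2889 and 3067 for the other PAL1 loci. BnaA04g21230D stood at 44.6 and 24.6 FPKM under white light, 166 and 556 under UV-B, 34.2 and 22.2 after herbivory, 22.7 and 4.55 with water, 13.1 and 7.63 with ethanol and UN65, and 13.4 and 18.2 with MeJA. BnaA04g21240D followed it in every library, at 42.5 and 21.6 FPKM under white light, 144 and 476 under UV-B, 28.8 and 22.4 after herbivory, 17.5 and 4.77 with water, 8.99 and 8.72 with ethanol and UN65, and 12.9 and 14.2 with MeJA. The first took between 46.7% and 59.3% of the pair's FPKM, and their log2 values correlated at r = 0.995 over the 12 libraries, which share their depth. Whether they are separate genes or parts of 1 gene model was not tested. If they are parts of 1 gene, adding their FPKM overstates the PAL1 and PAL sums, and the PAL1 shares and ratios with them. Their UV-B differences were 3.16 (SE 0.75, adjusted p = 0.0544) and 3.07 (SE 0.65, adjusted p = 0.0419 in limma), so loci with nearly the same values fell on opposite sides of the threshold.

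BnaC04g08190D, on C04, was the other called PAL1 locus. It stood at 17.8 and 8.96 FPKM under white light, 44.1 and 65.2 under UV-B, 7.82 and 7.05 after herbivory, 6.92 and 2.50 with water, 4.81 and 5.06 with ethanol and UN65, and 16.6 and 13.3 with MeJA, a UV-B difference of 2.00 (SE 0.43). BnaA05g07370D, on A05, stood at 29.1 and 10.8, 43.7 and 88.3, 12.6 and 5.71, 9.61 and 3.40, 8.18 and 7.89, and 29.0 and 21.5 FPKM in the same order, a UV-B difference of 1.75 (SE 0.60) that was not called. BnaA05g07370D made up 10.996% and 7.45% of PAL1 under UV-B, 21.7% and 16.3% under white light, and 40.3% and 32.0% with MeJA, where it was the highest PAL1 locus.

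PAL4 was the lowest of the 3 expressed PAL genes in most libraries. Its 2 loci summed to 39.0 and 10.5 FPKM under white light, 46.2 and 211 under UV-B, 58.5 and 15.7 after herbivory, 27.3 and 9.69 with water, 21.7 and 14.3 with ethanol and UN65, and 22.7 and 59.1 with MeJA. Its UV-B difference of 2.22 (SE 0.94, adjusted p = 0.187 in limma) was not called. BnaC05g42780D on C05, the higher locus, stood at 26.6 and 7.29 FPKM under white light, 35.4 and 144 under UV-B, 28.7 and 7.93 after herbivory, 19.99 and 4.25 with water, 9.08 and 5.70 with ethanol and UN65, and 6.50 and 21.1 with MeJA. Its share of PAL4 was between 68.3% and 76.7% in the white light and UV-B libraries and 28.6% and 35.7% with MeJA, the rest being BnaA05g28470D on A05. The 3 PAL3 loci, BnaA04g11940D, BnaAnng17700D and BnaC04g33780D, were at 0 in all libraries except for 0.0468 FPKM of BnaA04g11940D in UV-B replicate 41, and were not tested.

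PAL2 therefore took a larger share of all PAL FPKM under UV-B, 64.1% and 60.2%, than in any other library, where it was between 23.7% and 43.8%. PAL1 took 53.7% and 57.2% under white light and 32.2% and 33.8% under UV-B. The ratio of PAL2 to PAL1 was 0.57 and 0.59 under white light and 1.99 and 1.78 under UV-B, and between 0.46 and 1.43 in the other 8 libraries. These shares and ratios are given as a description, with no test. They add the neighbouring PAL1 loci of A04 as separate genes, which overstates PAL1 if both belong to the same gene.

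**Figure D3:**
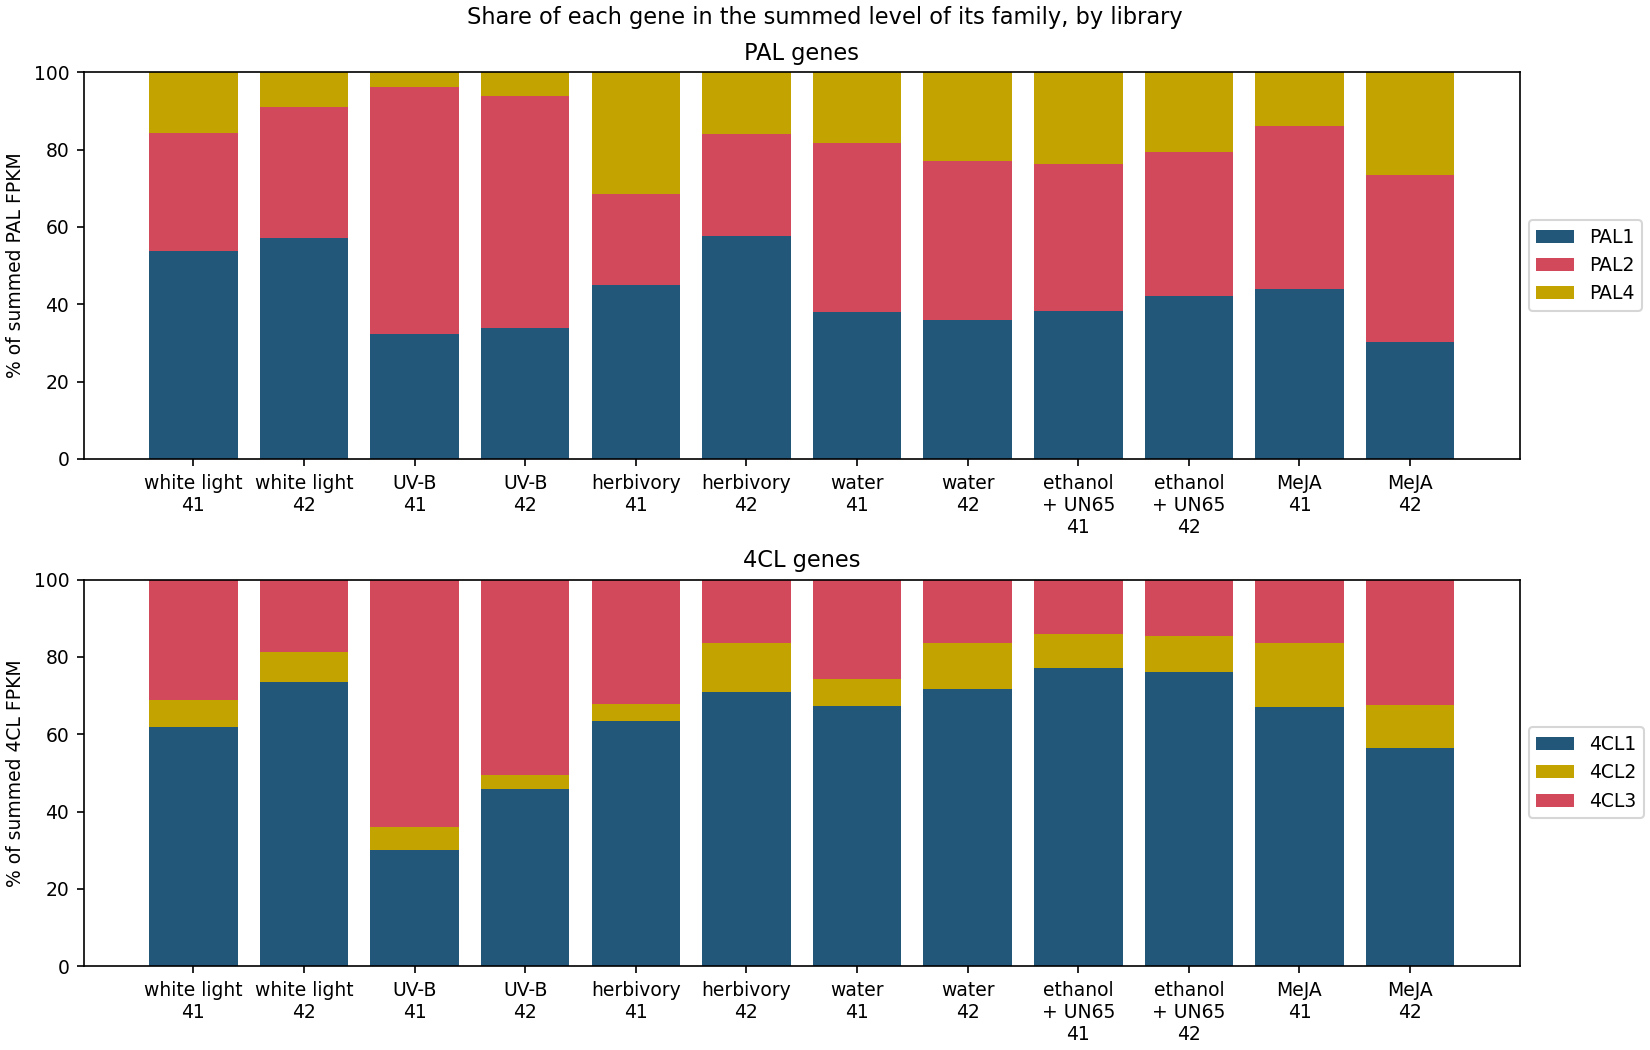
Bars give, for each library, the percentage of summed PAL FPKM (top) and of summed 4CL FPKM (bottom) that came from each gene. The 4CL sum is of 4CL1, 4CL2 and 4CL3 and leaves out 4CL5. PAL2 is 64.1% and 60.2% of PAL under UV-B and 4CL3 is 64.1% and 50.5% of 4CL, both above their shares in all 10 other libraries.

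C4H is a single gene in Arabidopsis and had 10 loci here. Their sum rose 6.13-fold under UV-B, a log2 difference of 2.62 (SE 0.54, adjusted p = 0.0313 in limma). It ran from 1.91 without UV-B replicate 42 to 3.32 without UV-B replicate 41, and the call was lost without UV-B replicate 42 or either white light library. Single loci were unlike each other, with UV-B differences from −0.92 to 3.88. BnaC04g14330D (C04, 11673325 to 11675293), the highest on average, stood at 48.8 and 35.2 FPKM under white light, 235 and 650 under UV-B, 38.4 and 25.1 after herbivory, 41.1 and 31.1 with water, 38.7 and 26.4 with ethanol and UN65, and 54.5 and 45.1 with MeJA. Outside UV-B it kept within 25.1 and 54.5 FPKM, and its UV-B difference was 3.21 (SE 0.49).

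BnaA05g11950D, on A05, stood at 61.2 and 32.0 FPKM under white light, 252 and 557 under UV-B, 32.3 and 16.2 after herbivory, 43.6 and 15.1 with water, 22.6 and 19.9 with ethanol and UN65, and 56.4 and 88.5 with MeJA. Its UV-B difference was 3.05 (SE 0.61), and its MeJA libraries were above all water and solvent libraries. BnaC04g14330D and BnaA05g11950D were the highest C4H loci under UV-B, the first with 30.5% and 31.8% of the C4H sum and the second with 32.7% and 27.3%.

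The other 8 C4H loci lay in 4 neighbouring pairs, on A03, A04, C03 and C04, between 213 and 7496 bases apart. In each pair the locus with the higher number had its highest levels in the 2 UV-B libraries, and the locus with the lower number had its highest level in MeJA replicate 41. This split was noticed after the values were seen and is a description.

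On A04, BnaA04g17570D stood at 16.5 and 5.58 FPKM under white light, 91.9 and 269 under UV-B, 10.1 and 5.27 after herbivory, 12.8 and 5.02 with water, 9.33 and 4.78 with ethanol and UN65, and 15.3 and 8.21 with MeJA. Its UV-B difference of 3.88 (SE 0.69) was the largest among C4H loci. Its neighbour BnaA04g17560D stood at 13.9 and 23.0, 17.0 and 101, 8.66 and 25.5, 0.0473 and 2.93, 2.30 and 0.858, and 122 and 6.99 FPKM in the same order. Its highest library was thus MeJA replicate 41, and its UV-B difference was 1.18 (SE 1.28).

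On C03, BnaC03g16960D stood at 14.4 and 9.66 FPKM under white light, 33.3 and 110 under UV-B, 10.3 and 6.29 after herbivory, 18.4 and 17.6 with water, 7.48 and 7.60 with ethanol and UN65, and 10.4 and 11.4 with MeJA (UV-B difference 2.27, SE 0.49). It was the only member with both MeJA libraries under both water libraries, which held for 17.9% of all loci. Its neighbour BnaC03g16950D was at 3.64 and 1.61, 0.121 and 4.78, 10.4 and 6.25, 0.0578 and 2.55, 2.85 and 2.49, and 36.03 and 5.78 FPKM. The neighbour made up 0.363% and 4.16% of the pair's FPKM under UV-B and 77.6% and 33.7% with MeJA.

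On C04, BnaC04g41130D stood at 49.0 and 14.3 FPKM under white light and 88.9 and 200 under UV-B, and was between 6.37 and 24.4 in the other 8 libraries (UV-B difference 2.28, SE 0.63, adjusted p = 0.0831 in limma). BnaC04g41120D was at 20.8 and 20.04, 25.8 and 82.9, 9.15 and 30.3, 0.0479 and 2.23, 4.38 and 1.36, and 173 and 18.1 FPKM in the order white light, UV-B, herbivory, water, ethanol and UN65, and MeJA. On A03, BnaA03g14010D was at 21.5 and 13.7 FPKM under white light and 24.96 and 60.3 under UV-B, while BnaA03g14000D was at 10.1 and 4.55 and at 1.36 and 6.29. None of these 4 loci was called.

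The 4 lower-numbered neighbours summed to 48.4 and 49.2 FPKM under white light, 44.3 and 195 under UV-B, 36.9 and 68.6 after herbivory, 1.60 and 12.7 with water, 14.9 and 10.4 with ethanol and UN65, and 346 and 45.3 with MeJA. The other 6 loci summed to 211 and 110, 726 and 1847, 119 and 81.6, 144 and 79.8, 103 and 76.1, and 170 and 184 FPKM. The high C4H sum of MeJA replicate 41, 516 FPKM, was therefore mostly the 4 neighbours, which held 67.1% of it against 19.7% in replicate 42. Log2 values of the paired loci correlated at r = −0.08 on A03, −0.24 on C03, 0.51 on A04 and 0.59 on C04, over 12 libraries that share their depth.

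**Figure D4:**
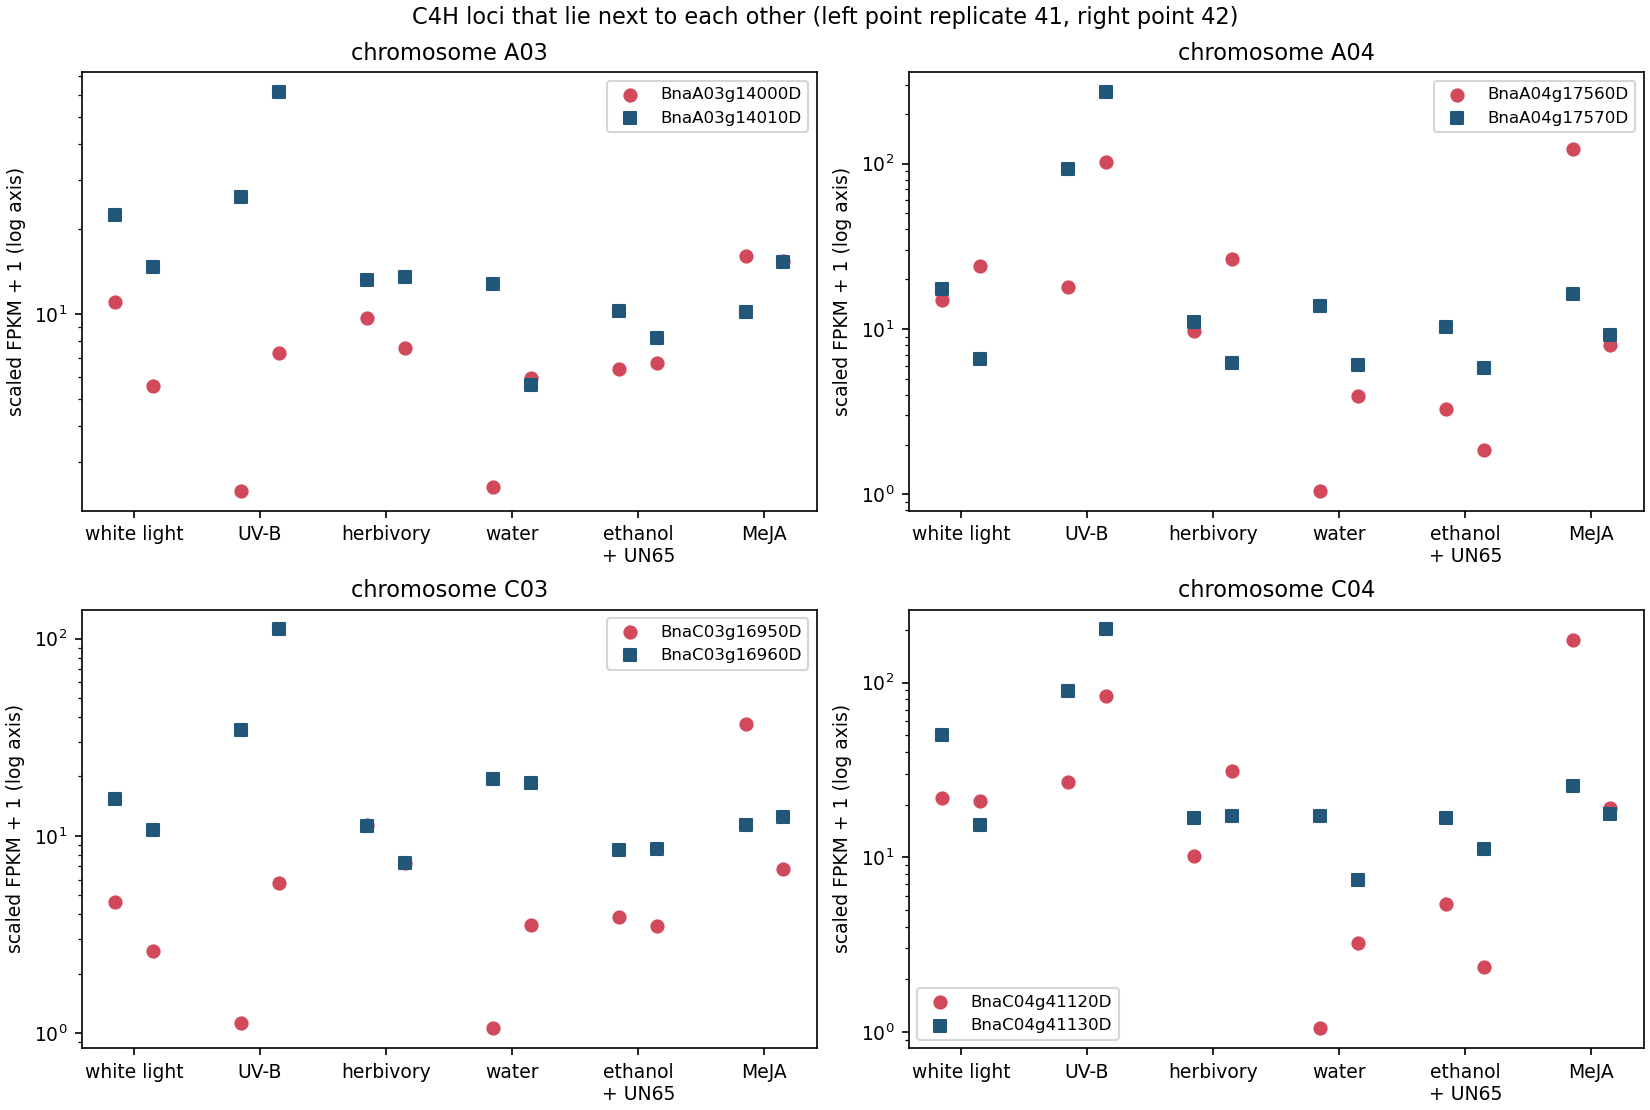
Each panel plots scaled FPKM + 1 (log axis) of 2 neighbouring C4H loci in the 12 libraries, red circles for the lower-numbered locus and blue squares for the higher-numbered one. Blue points are highest under UV-B in all 4 panels, and red points are highest in MeJA replicate 41, where BnaC04g41120D reaches 173 FPKM.

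Among 4CL genes, 4CL3 rose under UV-B. Its 2 loci summed to 22.0 and 8.88 FPKM under white light, 94.8 and 122 under UV-B, 18.2 and 6.93 after herbivory, 12.3 and 3.47 with water, 5.38 and 3.99 with ethanol and UN65, and 7.15 and 19.4 with MeJA. The UV-B difference was 2.85 (SE 0.67, adjusted p = 0.0442 in limma, 7.21-fold), and the 2 UV-B libraries were closer to each other, as a ratio, than those of PAL1, PAL2, PAL4 or C4H. The difference ran from 2.24 without white light replicate 42 to 3.46 without white light replicate 41. The call was lost in 9 of 12 alternatives, among them those without any 1 of the 4 libraries. BnaC06g26980D, on C06, stood at 12.5 and 5.18 FPKM under white light, 50.999 and 61.0 under UV-B, 10.5 and 4.03 after herbivory, 7.43 and 1.86 with water, 3.25 and 2.102 with ethanol and UN65, and 3.95 and 11.4 with MeJA (2.63, SE 0.66, adjusted p = 0.0629). BnaA07g25210D, on A07, was at 9.47 and 3.70, 43.8 and 61.4, 7.69 and 2.90, 4.83 and 1.61, 2.14 and 1.89, and 3.20 and 8.08 FPKM (2.91, SE 0.58, adjusted p = 0.0354 in limma). The A and C copies of 4CL3 moved alike, the C06 locus holding between 49.8% and 60.6% in every library.

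4CL1 and 4CL2 were not called. 4CL1 summed to 43.9 and 35.0 FPKM under white light, 44.5 and 111 under UV-B, 35.9 and 29.8 after herbivory, 32.2 and 15.2 with water, 29.7 and 20.9 with ethanol and UN65, and 29.0 and 33.9 with MeJA. Its UV-B replicate 41 was within 1 FPKM of white light replicate 41, and the difference was 0.83 (SE 0.46, 95% interval −0.20 to 1.86). Its higher locus BnaC06g08930D stood at 22.6 and 19.9, 23.6 and 54.0, 19.5 and 16.5, 19.0 and 9.22, 17.5 and 12.4, and 15.3 and 18.5 FPKM in the same order, and BnaA05g15310D on A05 took between 39.4% and 51.4% of the gene.

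4CL2 was the lowest of the 4CL genes, with nearly all signal from BnaA05g19760D on A05. This locus stood at 4.69 and 3.69 FPKM under white light, 7.97 and 9.11 under UV-B, 2.61 and 5.05 after herbivory, 2.40 and 2.41 with water, 3.34 and 2.62 with ethanol and UN65, and 6.41 and 6.19 with MeJA. Both the UV-B and the MeJA libraries were above every library of the other groups. The UV-B difference was 0.88 (SE 0.27, adjusted p = 0.109 in limma), below the minimum for a call. The C05 loci BnaC05g30940D and BnaC05g30950D reached at most 0.88 and 0.153 FPKM and were not tested.

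Of the summed FPKM of 4CL1, 4CL2 and 4CL3, without 4CL5, 4CL3 made up 31.1% and 18.7% under white light and 64.1% and 50.5% under UV-B. The share of 4CL1 went from 61.9% and 73.6% to 30.1% and 45.8%. The ratio of 4CL3 to 4CL1 was 2.13 and 1.10 under UV-B and between 0.181 and 0.573 in the 10 other libraries. The UV-B intervals of the 2 genes overlapped (1.34 to 4.36 and −0.20 to 1.86), and the difference between them was not tested.

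Herbivory against white light asked which loci change after larvae have fed. None of the 27 loci was called, against 0.0221% of all loci called either way, and none had an unadjusted p under 0.05. Their median log2 difference was −0.26, with 6 of 27 above 0, and the smallest adjusted p was 0.687 in limma. In 5 loci both herbivory libraries lay under both white light libraries and in 1 both lay above, which held for 20.2% and 19.8% of all loci. None of the 7 genes was called (0.0% of genes were) or had an unadjusted p under 0.05. The difference was −0.66 (95% interval −2.15 to 0.83) for PAL2, −0.44 (−1.93 to 1.05) for PAL1, −0.41 (−1.64 to 0.82) for C4H and −0.29 (−1.80 to 1.22) for 4CL3, and PAL4 was the 1 gene above 0, at 0.56 (−1.55 to 2.68). The intervals of PAL1, PAL4 and 4CL3 hold changes of more than 2-fold either way, so a change of that size was not excluded for these genes. Those of PAL2, C4H and 4CL1 (−1.28 to 0.78) hold falls of more than 2-fold, which were not excluded either. Against water, whose plants stood in like dim light but were sprayed, all 7 gene differences were above 0, at most 1.197 for PAL1 (SE 0.66, adjusted p = 0.371 in limma), with none called (0.809% of genes were) and none at an unadjusted p under 0.05. Of the loci, 21 of 27 were above 0 and 3 had an unadjusted p under 0.05. These were lower-numbered C4H neighbours: BnaC04g41120D (3.27, SE 1.06, adjusted p = 0.15 in limma), BnaA04g17560D (2.98, SE 1.28) and BnaC03g16950D (2.23, SE 0.95). All 3 were at most 0.0578 FPKM in water replicate 41. Summed leaf markers were 22661 and 6155 FPKM after herbivory against 28670 and 23987 under white light, and their part was not tested.

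MeJA against water asked which loci change after jasmonate treatment. None of the 27 loci was called, against 0.455% of all loci called either way, although 10 had an unadjusted p under 0.05 and 26 were above 0. Their median log2 difference was 0.86, against −0.02 over all loci, and the smallest adjusted p was 0.0891 in limma. In 15 loci both MeJA libraries were above both water libraries, which held for 17.0% of all loci. None of the 7 genes was called, against 0.844% of genes, and C4H and 4CL2 had an unadjusted p under 0.05. Their differences were 1.56 (SE 0.54, adjusted p = 0.413) and 1.02 (SE 0.30, adjusted p = 0.252), and those of PAL1 and PAL2 were 1.204 (SE 0.66) and 1.23 (SE 0.66), all in limma.

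The 3 largest MeJA differences belonged to lower-numbered C4H neighbours, at 4.97 (SE 1.06, adjusted p = 0.105 in limma) for BnaC04g41120D, 3.95 (SE 1.28) for BnaA04g17560D and 3.03 (SE 0.95) for BnaC03g16950D. All 3 were far higher in MeJA replicate 41 than in 42, and were at most 0.0578 FPKM in water replicate 41. For BnaC04g41120D the difference ranged from 3.38 to 6.57 when 1 library was left out. With MeJA against white light the differences were 1.43 (SE 1.06) for BnaC04g41120D, 0.73 (SE 1.28) for BnaA04g17560D and 2.19 (SE 0.95) for BnaC03g16950D. Next came the PAL2 loci BnaC06g14510D (2.38, SE 0.58) and BnaA07g16060D (2.13, SE 0.43, adjusted p = 0.0891 in limma). They were followed by the C4H locus BnaA03g14000D (2.04, SE 0.58) and the PAL1 locus BnaA05g07370D (1.93, SE 0.60). The PAL4 locus BnaA05g28470D (1.82, SE 0.91, unadjusted p = 0.0768 in limma) and the PAL1 locus BnaC04g08190D (1.59, SE 0.43) came after these. Among loci called under UV-B, MeJA differences ran from −0.68 (SE 0.49) for BnaC03g16960D to the 1.59 of BnaC04g08190D. BnaC04g08190D and the C4H locus BnaA05g11950D (1.42, SE 0.61) had an unadjusted p under 0.05. The other loci called under UV-B did not, among them BnaA04g17570D (0.43, SE 0.69) and BnaCnng52250D (0.57, SE 0.47).

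Against the solvent of ethanol and UN65, all 27 loci were higher with MeJA, by a median of 0.94, none was called (0.00402% of all loci were) and 8 had an unadjusted p under 0.05. In 23 both MeJA libraries were above both solvent libraries, which held for 21.8% of all loci. The C4H sum differed by 1.76 (SE 0.54, adjusted p = 0.329 in limma) and the PAL2 sum by 1.41 (SE 0.66, adjusted p = 0.579). None of the genes was called (0.0% of genes were), and C4H and 4CL2 had an unadjusted p under 0.05. The solvent itself against water gave no call (0.00402% of all loci), with 1 locus at an unadjusted p under 0.05 and a median of 0.12, and gene differences between −0.45 and 0.16. Both MeJA comparisons share the MeJA libraries, so they are not independent of each other. Summed leaf markers were 18804 and 13687 FPKM with MeJA, 38272 and 21467 with water, and 22316 and 25180 with ethanol and UN65. Summed xylem and secondary wall markers were 133 and 155 FPKM with MeJA, 107 and 116 with water, and 142 and 102 with ethanol and UN65. The part of either list in the result was not tested.

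Over all 6 groups at once, 17 of the 27 loci differed in limma's F test, against 8.29% of all loci, and 4 of the 7 genes (PAL1, PAL2, C4H and 4CL3) did, against 10.8% of genes. Without UV-B replicate 42 these counts were 2 and 0, and without ethanol and UN65 replicate 41 they were 5 and 1, as without its replicate 42. The locus count was 11 without herbivory replicate 41 or water replicate 42, and 10 without MeJA replicate 41.

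Copies from the A and C genomes contributed in similar measure. The A loci held between 35.3% and 57.7% of C4H, between 31.9% and 48.9% of PAL2, between 39.4% and 51.4% of 4CL1 and between 39.4% and 50.2% of 4CL3. PAL1 was an exception, with 76.9% to 94.5% from A loci, largely the A04 pair, and so was 4CL2, with 71.8% to 100.0%. The PAL1 share is overstated if the A04 pair belongs to the same gene, which was not tested. For PAL4 the A share ran from 23.3% in UV-B replicate 41 to 71.4% in MeJA replicate 41.

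Genes around the entry steps were taken from lists written from general knowledge. Phenylalanine supply rests on the arogenate dehydratases ADT1 to ADT6, of whose 16 tested loci 7 were above 0 under UV-B, with a median of −0.03, and 1 was called higher (2.68% of all loci were), the ADT3 locus BnaA04g16070D, at 82.3 and 189 FPKM against 38.5 and 23.6 (2.01, SE 0.43, adjusted p = 0.0433 in limma). The list had no call when white light replicate 41 or 42 or UV-B replicate 42 was left out, and 2 without UV-B replicate 41. The 13 tested loci of the P450 reductases ATR1 and ATR2 gave none, though the ATR2 locus BnaA01g06800D stood at 98.8 and 177 FPKM against 43.7 and 16.3 (2.26, SE 0.57, adjusted p = 0.0654).

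Downstream, the flavonol enzymes CHS, CHI, F3H, F3'H and FLS1 had 11 of 24 tested loci called under UV-B, all higher (2.68% of all loci were called higher), with a median of 3.05 against 0 over all loci. One of the 11, the F3'H locus BnaA10g23330D, stood at 2.78 and 1.45 FPKM against 0 and 0.11. Summed F3'H was at most 0.178 FPKM outside UV-B, so this locus entered the test only through the UV-B libraries. The CHI locus BnaA09g34840D, for chalcone isomerase, stood at 90.6 and 140 FPKM under UV-B against 6.07 and 4.02 (4.25, SE 0.32, adjusted p = 0.00299 in limma). Enzymes of lignin and sinapate synthesis had 6 of 35 called, all higher, against the same 2.68%, with a median of 0.64. These were 2 loci each of UGT84A2, a sinapate glucosyltransferase, and of the p-coumaroyl ester hydroxylase C3H1, and 1 each of CCoAOMT1, a caffeoyl-CoA methyltransferase, and REF1, the dehydrogenase that makes sinapate and ferulate. The C3H1 locus BnaA04g23600D stood at 34.8 and 51.1 FPKM against 5.95 and 6.32 (2.60, SE 0.31, adjusted p = 0.00955 in limma). Called loci of the flavonol list numbered 2 without white light replicate 42, 5 without white light replicate 41 and 5 without UV-B replicate 42, and those of the lignin and sinapate list 0, 0 and 2.

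Regulators of the pathway were called as well. The Kelch F-box proteins KFB01, KFB20, KFB39 and KFB50, which tag PAL for degradation in Arabidopsis, had 3 of 9 tested loci called under UV-B, all higher, against 2.68% of all loci. The KFB50 locus BnaC08g30150D stood at 159 and 212 FPKM against 40.9 and 45.8 (2.06, SE 0.35, adjusted p = 0.024 in limma). MYB factors had 11 of 17 called, all higher: 5 loci of MYB12 and 3 of MYB111, which switch on flavonol genes in Arabidopsis, and 3 of MYB4, a repressor of C4H there. The share over all loci was again 2.68%, and the other MYB genes of the list, MYB7 and MYB32, had no call and gene differences of 0.0033 (SE 0.34) and 0.25 (SE 0.39). The MYB12 locus BnaC03g26060D stood at 30.3 and 54.6 FPKM against 2.13 and 0.618 (4.21, SE 0.37, adjusted p = 0.00547). Called MYB loci numbered 2 without white light replicate 42, 6 without white light replicate 41, 7 without UV-B replicate 41 and 4 without UV-B replicate 42, and called F-box loci 0, 1, 1 and 0. With at least 1 FPKM asked for in 4 libraries, 5 MYB loci were called. The 11 may thus include loci that entered the test only through UV-B. The MYB12 loci BnaA05g00510D and BnaC04g52010D, for example, were at 0 in both white light libraries. Any such locus raises the share of 11 in 17.

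After herbivory no locus of these lists was called, against 0.0221% of all loci. The smallest p there belonged to the F5H1 locus BnaC07g46040D, for ferulate 5-hydroxylase, at 10.2 and 11.8 FPKM against 37.8 and 51.1 (−1.91, SE 0.45, adjusted p = 0.3 in limma). With the smallest p of their lists were also the ADT3 locus BnaA04g16070D (−1.35), the ATR1 locus BnaC01g16350D (−1.80), the CHS locus BnaC02g37280D (1.17), the KFB39 locus BnaC04g03370D (−0.44), the MYB111 locus BnaC09g02660D (0.75) and the 4CL5 locus BnaC05g30990D (0.54), with adjusted p between 0.399 and 0.85 in limma.

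With MeJA against water the only calls were 2 of the 5 tested loci of 4CL5 (AT3G21230), the fourth Arabidopsis 4CL gene, which also accepts sinapate, against 0.455% of all loci. BnaC05g30990D stood at 33.5 and 48.6 FPKM with MeJA against 0.415 and 1.88 with water (4.36, SE 0.59, adjusted p = 0.0311 in limma), and BnaA05g36600D at 23.8 and 27.8 against 2.56 and 4.41 (2.61, SE 0.37, adjusted p = 0.033). Both calls were lost when any 1 of the 4 libraries was left out. Under UV-B these loci were not called, and all 4CL5 loci together summed to 13.0 and 22.2 FPKM against 43.5 and 16.6 under white light. The locus with the smallest p there, BnaA05g36600D, was at 5.71 and 5.11 against 17.5 and 7.97 (−1.01, SE 0.37, adjusted p = 0.157 in limma).

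The other lists had no call with MeJA against water. Their loci with the smallest p were of ADT1 (BnaC05g08770D, 1.79), ATR2 (BnaAnng10960D, 1.80), FLS1 (BnaCnng09340D, 2.31), REF1 (BnaA03g37390D, 1.65), KFB39 (BnaC03g24700D, −1.07) and MYB32 (BnaA01g02240D, 1.79), with adjusted p between 0.0585 and 0.541 in limma.

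The loci most like each family in profile were sought among 16812 loci by Pearson's r of log2 values over the 12 libraries, as a description. For summed PAL these were BnaC05g13160D (r = 0.992), matched to a solanesyl diphosphate synthase, BnaC02g38530D (r = 0.992), matched to a FRIGIDA-like protein, and BnaA07g26630D (r = 0.989), matched to the chloroplast protease FTSH1. For summed C4H they were BnaA02g19790D (r = 0.981), BnaA08g16730D (r = 0.980) and BnaC06g01910D (r = 0.979). Their matches were a pyridoxal phosphate-dependent transferase, a PHD finger protein and an ABC transporter. For summed 4CL they were BnaA10g03150D (r = 0.991), BnaA08g28720D (r = 0.986) and BnaA10g05890D (r = 0.984), matched to a peptidase, an oxidoreductase and the gene AT5G51040. No locus was among the nearest 3 of more than 1 family.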

How the data were processed

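RNA-seq libraries of B. napus leaves were read from the authors' deposited matrix. The authors aligned reads with TopHat2 2.1.12 and quantified loci with Cufflinks 2.2.1, and gave each locus its Arabidopsis match from TAIR10. The deposited matrix is named as read counts but holds FPKM, and raw counts were not analysed here. Means of the UV-B columns and of the ethanol and UN65 columns equal the authors' group values at all 101040 loci (relative tolerance 0.0001). Means of the other groups equalled those values at only 32421 to 34191 loci, and why was not tested. UV-B against white light thus sets a group that matched at all loci against a group that did not. Columns had been scaled in separate runs, so a library's scale factor was the median, over 46905 loci above 0 in every library, of its ratio to the average of all libraries. Another 22 columns of single libraries match no label and were not used, and 1 locus marked as having too much data was left out. The authors' fold changes, p-values and q-values in the deposited comparison tables were not used.

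Values were transformed to log2(FPKM + 1) and tested in limma 3.58.1 (R 4.3.3). One model held all 12 libraries and the 6 group means, its prior variance followed the mean level, and replicate numbers were no term in it. Loci needed at least 1 FPKM in at least 2 libraries (49700 loci). The same fit was run on sums over loci with one Arabidopsis match (16936 genes). Calling was first tested on simulated data with known changes. Replicate numbers were not treated as pairing libraries: deviations correlated above 0.1 in 4 of 15 pairs of groups (−0.37 to 0.41). These values do not settle whether some groups were paired or shared a batch. Named are the highest locus of each gene, every called member and, from each list, the locus with the smallest p, and the 3 loci nearest in profile to each family. Other members, among them the lower-numbered C4H neighbours and the PAL2 loci on C06 and A07, were named after their values were seen. The members, lists and settings were chosen with earlier results of these data known. Alternatives were other filters, pseudocounts of 0.1 and 0.5, other scalings, the compared groups alone, other controls, a replicate block and each library left out. Those for the pathway lists were added after seeing the data. Promoter and protein sequences were not used here.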

Additional observations from a re-analysis of the deposited data

How the results depend on the processing

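The 2 libraries a group and the unknown number of reads limit every statement. Counts of called members for herbivory, both MeJA comparisons and the solvent were 0 under all alternatives run. Under UV-B, 11 called loci became 6 with no filter, 7 with a pseudocount of 0.1, 6 with the values as deposited and 0 with the compared groups alone, and 0 to 11 when 1 library was left out. The 4 called genes became 2 with no filter, 2 with the values as deposited and 0 with the compared groups alone, and 0 to 3 when 1 library was left out. With the replicate block the counts were 9 loci and 2 genes, and whether the replicate numbers pair libraries was not settled. Over all 6 groups, 17 called loci became 10 with no filter and 2 to 14 when 1 library was left out, and 4 genes became 0 to 5. The cause was not tested. Of the log2 differences, 674 kept their direction and side of the threshold, 80 kept only the direction, 3 newly passed the threshold and 35 changed sign, none of these called. This tally covers all gene sums tested and, for UV-B and MeJA against water, only loci with an unadjusted p under 0.05. Loci picked that way were likely to keep their direction.

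Signs changed with other controls. Herbivory against water gave 0.54 for 4CL1, 0.28 for 4CL2, 0.68 for 4CL3, 0.40 for C4H, 1.197 for PAL1 and 0.0022 for PAL2, and MeJA against white light gave −0.31 for 4CL1, −0.23 for 4CL3 and −0.43 for PAL1. Against white light, herbivory gave 0.15 for 4CL1, 0.20 for 4CL2 and 0.0883 for 4CL3 with columns of equal totals, and 0.012 for 4CL2 with the values as deposited. With 1 library left out, herbivory differences ran from −0.55 to 0.27 for 4CL2, −0.93 to 0.35 for 4CL3, −0.94 to 0.068 for PAL1 and −0.35 to 1.48 for PAL4. MeJA against water ran from −0.037 to 1.00 for 4CL1 and −0.039 to 1.53 for 4CL3. The solvent against water ran from −0.36 to 0.68 for 4CL1, −0.13 to 0.16 for 4CL2, −1.23 to 0.34 for 4CL3, −0.52 to 0.13 for C4H, −0.81 to 1.03 for PAL1, −1.11 to 0.75 for PAL2 and −0.61 to 0.80 for PAL4.

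Counts in the pathway lists under UV-B with the compared groups alone were 0 for all 5 lists with a call. A pseudocount of 0.1 left 6 MYB loci, 1 F-box locus and 0 ADT loci, and a filter of 1 FPKM in 4 libraries left 5 MYB loci. The 2 MeJA calls of 4CL5 became 0 with no filter, with the replicate block, with the compared groups alone and against white light.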
